A study of Citrullus lanatus with 6 samples.

Results

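The 6 genes described here encode heat shock proteins, a chaperonin and a heat stress factor of watermelon (Citrullus lanatus). They were taken from the 19742 genes of the count table and were chosen by their counts and FPKM in these same libraries, as genes higher in drought-stressed leaves, so their differences between treatments are given as a description, with no test. They are heat shock protein 21 (ClCG01G000120), a 22.7 kDa class IV small heat shock protein (ClCG02G006430), an 18.1 kDa class I-like small heat shock protein (Novel00340), heat shock 70 kDa protein 1 (ClCG05G005200), a 60 kDa chaperonin (ClCG02G021340) and heat stress transcription factor A-2 (ClCG08G017080).

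Leaves of the cultivar Crimson Sweet were compared by RNA-Seq between 3 drought-stressed plants and 3 control (well-watered) plants. Drought-stressed plants grew in pots kept at 35 ± 5% soil moisture, against 95 ± 5% in the pots of control plants. All 6 plants were sampled 8 days after water was first withheld, at an age of 89 days, and each library came from a separate plant grown in a high-tunnel greenhouse. The study asked how leaf transcripts change early in drought.

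Heat shock proteins are chaperones, which hold or refold other proteins when heat, drying or oxidation unfolds them. Small heat shock proteins bind unfolded proteins without using ATP, HSP70 and HSP100 proteins refold or disentangle them with ATP, and chaperonins are barrels inside which proteins fold. Heat stress transcription factors of class A switch on the genes of these chaperones, and in Arabidopsis factor A-2 is itself made under heat and strong light.

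The libraries held 21143377 to 22351455 counted fragments in drought-stressed plants and 17907062 to 21852732 in control plants. Drought-stressed plants resembled each other, with correlations of log2(CPM + 0.5) across genes of 0.960 to 0.977. Control plant 2 stood apart from the other control plants (0.895 with plant 1 and 0.859 with plant 3, against 0.955 between plants 1 and 3). Of the 16318 genes with enough counts to test, edgeR's quasi-likelihood test called 2185 at an adjusted p under 0.05, which is 13.4% (5.31% higher and 8.08% lower in drought-stressed plants). Chlorophyll a-b binding proteins of the leaf mesophyll, 8 genes at hand, summed to 11986, 8328 and 11951 FPKM in drought-stressed plants and to 52981, 13478 and 36103 FPKM in control plants, so transcripts that define a green leaf were abundant in every library. These 8 genes, like 12 of the 13 phloem and cuticle markers at hand, have a description because the study listed them as lower, and whether a shift in cell types has a part in the values below was not tested. In whole leaves, fewer cells of a type and less RNA per cell cannot be told apart.

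All 6 genes passed the filter on low counts, the class IV gene through its drought-stressed libraries alone, and edgeR called all 6 higher. The class I-like gene, with 4 counts in control plant 1, would not have passed on its control libraries alone. In each of them every drought-stressed plant lay above every control plant in TMM-scaled CPM (counts per library size with edgeR's correction for composition), a pattern that 19.9% of the tested genes showed. Both counts only restate how the genes were chosen. The number called was 4 of 6 without control plant 1 or without any one of the drought-stressed plants, when the chaperonin and the factor were no longer called, and the replicate block left it at 6.

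Heat stress transcription factor A-2, the only transcription factor among the 6, lies on chromosome 8 (29386996 to 29391058, plus strand) with a gene model of 3597 bases. It had 1768, 2985 and 1926 counts in drought-stressed plants, against 205, 158 and 516 in control plants. Per length these were 22.1, 37.1 and 25.3 FPKM in drought-stressed plants, against 2.72, 2.45 and 6.56 FPKM in control plants. The groups did not overlap, and control plant 3 was well above the other control plants. The gene averaged 94.8 ± 23.5 CPM in drought-stressed plants and 15.9 ± 11.5 CPM in control plants (SD, n = 3 each), a log2 fold change of 2.57 (SE 0.52). The fold was 5.95, and 10.1 without control plant 3. An undescribed gene on the minus strand, ClCG08G017090, overlaps its last 1402 bases. It had 34, 30 and 19 counts in drought-stressed plants and 46, 22 and 44 in control plants. The library kit named in the study's methods does not mark strand, so reads of the shared stretch cannot be assigned by strand.

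Heat shock protein 21 was the most abundant of the 6 genes in drought-stressed leaves. In Arabidopsis the protein of this name is a small heat shock protein of the chloroplast. Its gene lies on chromosome 1 (94076 to 94855, minus strand; a model of 726 bases). It had 12235, 59254 and 70092 counts in drought-stressed plants, against 22, 50 and 17 in control plants. The level was 759, 3652 and 4566 FPKM in drought-stressed plants, against 1.44, 3.85 and 1.07 FPKM in control plants. Drought plant 1 was far below the other drought-stressed plants and still far above each control plant. The mean of 2047 ± 1385 CPM in drought-stressed plants stood against 1.52 ± 0.793 CPM in control plants (SD, n = 3 each), which is 1342-fold. By mean FPKM the gene ranked 16 of 19742 in drought-stressed leaves and 13835 in control leaves. It took 0.0551%, 0.265% and 0.332% of all counted fragments in the drought-stressed libraries.

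The 22.7 kDa class IV gene was found in drought-stressed plants alone. Class IV small heat shock proteins have been placed in the endomembrane system in pea. The gene lies on chromosome 2 (7376677 to 7378076, minus strand; a model of 619 bases), and had 476, 1313 and 666 counts in drought-stressed plants, against 0 in all 3 control plants. Its level was 34.6, 94.9 and 50.9 FPKM in drought-stressed plants. Taking 3 counts over all control libraries as the most that could have gone unseen, it was at least 665-fold higher in drought-stressed plants. That bound lay between 424 without control plant 2 and 808 without drought plant 1.

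The 18.1 kDa class I-like gene is a transcript model that the authors added to the annotation, on chromosome 4 (22525374 to 22526435, plus strand; 1062 bases in 1 block). Class I small heat shock proteins are cytosolic. It had 6426, 27789 and 16640 counts in drought-stressed plants, against 4, 29 and 25 in control plants. Its level was 273, 1171 and 741 FPKM in drought-stressed plants and 0.179, 1.52 and 1.08 FPKM in control plants. As with heat shock protein 21, plant 1 was the low one among drought-stressed plants, here by 4.12-fold against the highest. The mean was 721 ± 428 CPM in drought-stressed plants and 1.01 ± 0.690 CPM in control plants (SD, n = 3 each), a log2 fold change of 9.47 (SE 0.98).

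Heat shock 70 kDa protein 1, which in Arabidopsis names a cytosolic HSP70, was the least abundant of the 6 in drought-stressed leaves per length. It lies on chromosome 5 (5023481 to 5026850, minus strand; a model of 2260 bases). It had 621, 870 and 673 counts in drought-stressed plants, against 15, 33 and 14 in control plants. In FPKM the drought-stressed plants had 12.4, 17.2 and 14.1, against 0.316, 0.815 and 0.283 in control plants. The drought-stressed plants were close to each other, within 1.34-fold. The mean was 30.8 ± 4.43 CPM in drought-stressed plants and 1.07 ± 0.466 CPM in control plants (SD, n = 3 each), a log2 fold change of 4.84 (SE 0.37). HSP70 genes are similar in sequence, so reads that fit more than 1 of them make the split between copies uncertain.

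The 60 kDa chaperonin differed from the others in that control leaves already held it at a high level. Proteins of this kind work in plastids and mitochondria, and the description does not say in which. The gene lies on chromosome 2 (35887466 to 35890860, plus strand; a model of 2051 bases). It had 29727, 33770 and 30178 counts in drought-stressed plants, against 6634, 5670 and 7271 in control plants. The level was 653, 737 and 696 FPKM in drought-stressed plants, against 154, 154 and 162 FPKM in control plants. Both groups were tight in FPKM, while in TMM-scaled CPM the control plants spanned 1.49-fold. The gene ranked 122 by mean FPKM in drought-stressed leaves and 623 in control leaves. The mean of 1339 ± 67.1 CPM in drought-stressed plants stood against 348 ± 67.7 CPM in control plants (SD, n = 3 each), 3.85-fold. Of the 6 genes it had the smallest fold and, among drought-stressed plants, the smallest spread.

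**Figure D1:**
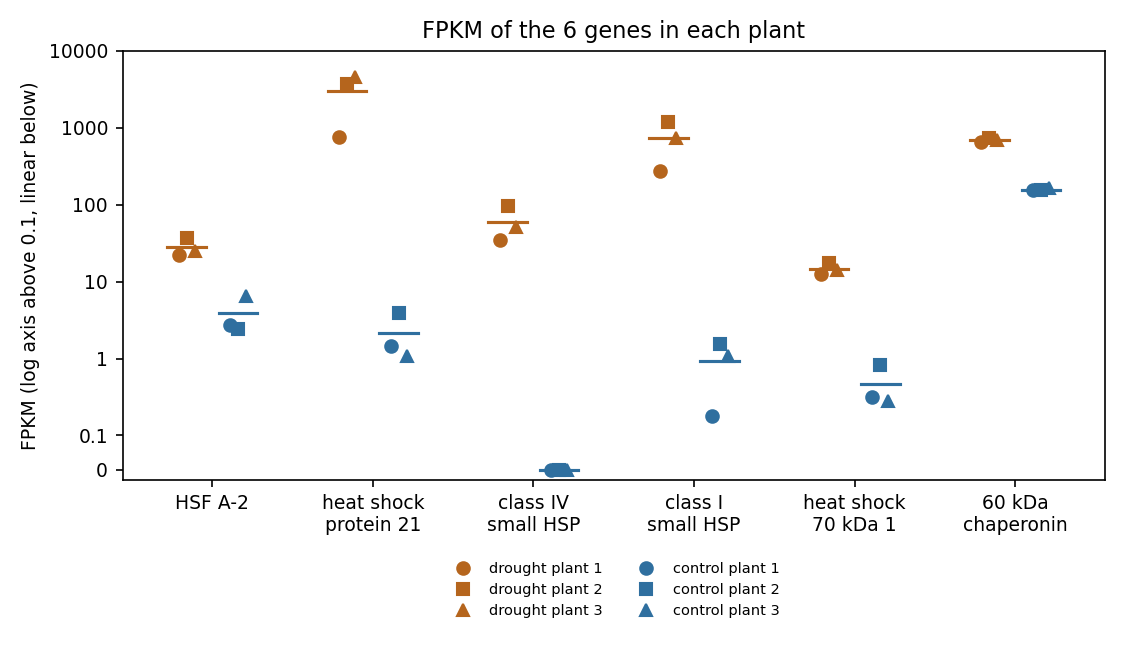
FPKM of the 6 genes in each plant, on a log axis above 0.1 and a linear one below it. Orange symbols are the 3 drought-stressed plants, blue symbols the 3 control plants, and bars the group means. The 60 kDa chaperonin is the only one of the 6 with control plants above 100 FPKM, and the class IV small heat shock protein is at 0 in all control plants.

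Ordered by mean FPKM in drought-stressed leaves, heat shock protein 21 (2992) came before the class I-like gene (728) and the chaperonin (695), followed by the class IV gene (60.1), the factor (28.2) and heat shock 70 kDa protein 1 (14.6). Not every step of that order was larger than the spread between plants. The ranges of neighbours were apart only between the chaperonin and the class IV gene and between the factor and heat shock 70 kDa protein 1. Heat shock protein 21 exceeded the class I-like gene in each of the 3 drought-stressed plants, by 2.79, 3.12 and 6.16-fold, although the ranges overlapped. The class I-like gene and the chaperonin cannot be ordered, since the class I-like gene was at 0.417 of the chaperonin's level in drought plant 1 and at 1.59 and 1.06 of it in drought plants 2 and 3.

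In control leaves the order by mean FPKM was another one. The chaperonin (157) was far above the factor (3.91), heat shock protein 21 (2.12), the class I-like gene (0.927) and heat shock 70 kDa protein 1 (0.472), with the class IV gene at 0. Between the factor and heat shock 70 kDa protein 1 no pair of neighbours kept its order in more than 2 of the 3 control plants. By compartment, the transcript of the chloroplast protein was above that of the organelle chaperonin in every drought-stressed plant and below it in every control plant, the genes of the endomembrane small heat shock protein and the cytosolic HSP70 were below it in every plant of both groups, and the class I-like gene of the cytosol exceeded it in drought plants 2 and 3 and in no other plant. These compartments rest on the gene names and on other species.

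The drought-stressed plants were not alike in these transcripts. All 6 genes were lowest in drought plant 1 by TMM-scaled CPM, whereas 39.6% of all genes called higher were lowest in that plant. Of the 37 other genes called higher in the chaperone list described below, 54.1% were lowest in it. The factor, the class IV gene, the class I-like gene and heat shock 70 kDa protein 1 were ordered plant 1, plant 3, plant 2 from low to high. Of all genes called higher 26.2% had this order, and of those 37 list genes 32.4%. Heat shock protein 21 and the chaperonin were ordered plant 1, plant 2, plant 3. For the chaperonin the last step is smaller than the uncertainty of the scaling: with library totals in place of TMM it took the order of the other 4 genes.

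The width of the differences among drought-stressed plants ran from 6.20-fold for heat shock protein 21 and 4.12-fold for the class I-like gene, over 2.63-fold for the class IV gene and 1.61-fold for the factor, to 1.34-fold for heat shock 70 kDa protein 1 and 1.10-fold for the chaperonin. The SD of log2(CPM + 0.5) of heat shock protein 21 in drought-stressed plants was 1.41, above that of 99.4% of the tested genes. For the factor it was 0.35, above 69.9% of them, and for the chaperonin 0.073, above 9.49%. Of the 6 genes, the small heat shock proteins thus varied the most from plant to plant. Over the genes of each kind that were called higher, the median ratio of the highest to the lowest drought-stressed plant in CPM + 0.5 was 2.59 for 9 small heat shock proteins, 1.70 for 4 HSP70 genes and 1.18 for 8 chaperonins, against 1.31 for all 866 genes called higher. These sets include the genes described above and are not independent of them. For the 6 other small heat shock proteins called higher the ratio in CPM was 3.13, 2.91, 2.54, 1.52, 1.48 and 1.25.

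**Figure D2:**
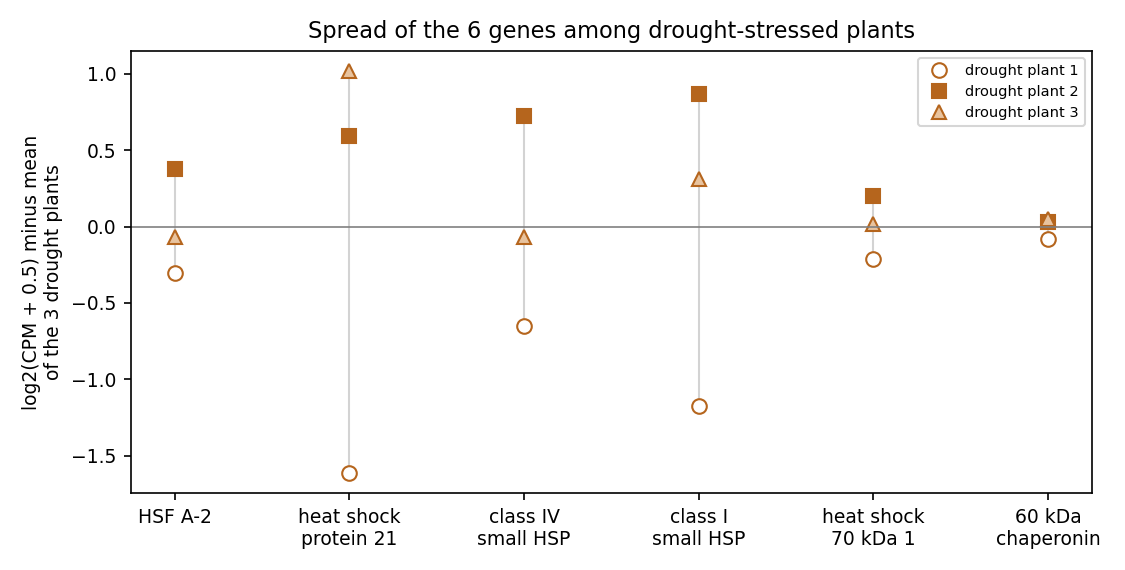
Position of each drought-stressed plant relative to the mean of the 3, in log2(CPM + 0.5), for the 6 genes. Plant 1 (open circles) is the lowest for every gene, and the lines that join the plants are longest for heat shock protein 21 (6.20-fold) and shortest for the chaperonin (1.10-fold).

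With 3 drought-stressed plants, covariation with the factor can be described and not tested. Drought plant 2 held 1.61 times the factor transcript of drought plant 1, and 4.62 times as much of heat shock protein 21, 4.12 times as much of the class I-like gene, 2.63 times as much of the class IV gene, 1.34 times as much of heat shock 70 kDa protein 1 and 1.08 times as much chaperonin. Drought plant 3 had the highest level of heat shock protein 21 and was below plant 2 for the factor. The ratio of heat shock protein 21 to the factor in FPKM was 34.3, 98.4 and 180.3 in the drought-stressed plants, against 0.532, 1.57 and 0.163 in control plants. The same ratio varied less for the class IV gene, at 1.56, 2.56 and 2.01 in drought-stressed plants, and for heat shock 70 kDa protein 1, at 0.559, 0.464 and 0.556 in drought-stressed plants.

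Among control plants only the chaperonin had the order of the factor, with plant 2 lowest and plant 3 highest in TMM-scaled CPM. This rests on the scaling. In FPKM control plants 1 and 2 were nearly equal for the chaperonin, at 154.1 and 154.4, and plant 1 was the lowest. The factor was highest in control plant 3, at 6.56 FPKM. Heat shock protein 21 and heat shock 70 kDa protein 1 were lowest in that plant, at 1.07 and 0.283 FPKM. Their highest values were in control plant 2, where the factor was lowest and which stood apart from the other control libraries.

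Over all 6 plants, likeness of profile was measured as the root mean square difference of log2(CPM + 0.5) centred on each gene's mean. The tested gene most like the factor was another of the chaperone genes, a class I small heat shock protein (ClCG03G001100, 0.202). It had 1185, 1707 and 1623 counts in drought-stressed plants, against 129, 127 and 406 in control plants, with control plant 3 high as for the factor. It was followed by a RING/FYVE/PHD zinc finger protein (ClCG01G006180, 0.283), a heavy metal transport protein (ClCG03G003900, 0.327), a CCCH zinc finger protein (ClCG05G017680, 0.333) and a GPI-anchored protein (ClCG02G015890, 0.350). Of the other 5 genes, the chaperonin ranked 66 in likeness to the factor, heat shock 70 kDa protein 1 ranked 1503 and the class IV gene ranked 11482 of 16318. These ranks depended on the pseudocount, and with 5 in place of 0.5 they were 13, 55 and 76. The class I-like gene (16067) and heat shock protein 21 (16237) were far down with either pseudocount (15941 and 16244 with 5). Their log2 fold changes were 9.47 and 10.4, against 2.57 for the factor. The measure is not scaled to the size of the change. A gene with a much larger fold than the factor thus ranks low whatever the order of its plants, and these ranks do not measure covariation.

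The mean profile of the other 5 genes was closest to TIFY 5A, a name used for jasmonate pathway repressors (ClCG03G006720, 0.350), and an ATP-dependent FtsH zinc metalloprotease (ClCG09G018210, 0.393). A Rab-37 GTPase (ClCG02G008590, 0.558), an S-RNase (ClCG09G008700, 0.569) and a dehydrin (ClCG07G008700, 0.574) came next, and the factor ranked 141. With a pseudocount of 5 in place of 0.5, 3 of the 5 genes nearest the factor and 2 of the 5 nearest the mean profile stayed among the nearest 5, and ClCG03G001100 remained the first for the factor.

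The nearest annotated genes in the count table on each side of the 6 mostly did not share their change. Models added by the authors were skipped and genes without an entry are not seen, so these need not be the adjacent genes. Of all tested genes 13.4% were called in either direction, and the neighbours are too few to set a share against this. The gene before heat shock protein 21, ClCG01G000110, runs towards it on the opposite strand and ends 273 bases from its end. It had 84, 342 and 277 counts in drought-stressed plants, against 0, 17 and 4 in control plants, and was higher, with a log2 fold change of 4.79 (SE 1.08, edgeR adjusted p = 0.0319). Without strand, how many of these counts come from reads that run past the end of the heat shock gene was not tested. The gene on its other side, ClCG01G000130, had a log2 fold change of -0.02 (SE 0.33, edgeR adjusted p = 0.969). Before the factor lies a glutaredoxin 2, a thiol redox enzyme (ClCG08G017070, 10019 bases away), which rose by 2.05 (SE 0.31, edgeR adjusted p = 0.0108). The gene after the chaperonin, ClCG02G021350, fell by 1.36 on the log2 scale (SE 0.33, edgeR adjusted p = 0.0395). The other neighbours that could be tested did not pass the threshold.

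The wider chaperone network was read from 78 genes whose descriptions name a heat shock factor, a chaperone or a folding enzyme. This list is not independent of the change it is used to describe. Descriptions were at hand for 48 of the 78 because the study listed them as higher in drought-stressed leaves and for 22 because it listed them as lower, so chaperone genes that did not change are mostly missing. Of the 76 list genes tested, edgeR called 43 higher (56.6%) and 7 lower (9.21%). Of all tested genes it called 5.31% higher and 8.08% lower. Without the 6 genes these were 37 higher and 7 lower of 70. Among tested genes with a description outside the list, 23.3% were called higher and 33.3% lower. The median log2 fold change was 1.11 for the list, -1.28 for the other described genes and -0.03 for all tested genes. With the replicate block the list had 36 higher and 12 lower. Without control plant 1 or without drought plant 1, 2 or 3 the number higher was 22, 23, 21 and 21, and the number lower was 4, 3, 2 and 2. Without control plant 2 it was 48 higher and 19 lower, and without control plant 3 it was 39 higher and 12 lower. The 8 list genes described in the deposited table, where a description did not depend on change, gave 2 higher and 0 lower of 6 tested by edgeR, and 1 of these 2 is the class I-like gene.

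Together the 78 genes took 1.22%, 2.08% and 1.75% of counted fragments in drought-stressed plants, against 0.454%, 0.673% and 0.414% in control plants. The groups did not overlap, and drought plant 1 was again the lowest of the drought-stressed plants.

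Of the 6 heat shock factors tested, edgeR called 3 higher and 1 lower. Without the factor A-2 above it called 2 higher and 1 lower of 5, against 5.31% higher and 8.08% lower of all tested genes. All 6 were described because the study listed them as higher or lower. The factor described as A-5 (ClCG11G002480) was the most abundant per length in drought-stressed leaves, with 10135, 11204 and 5782 counts in drought-stressed plants against 363, 927 and 245 in control plants. Its log2 fold change was 3.87 (SE 0.53, edgeR adjusted p = 0.00833), and unlike the factor A-2 it was lowest in drought plant 3. A second gene described as A2 (ClCG11G001700) had 30, 73 and 11 counts in drought-stressed plants and 0 in all control plants, at least 30.9-fold higher. This bound was 17.2-fold without drought plant 2 and 19.7-fold without control plant 2. Factor B-4 (ClCG05G007930), of the class that lacks the activation domain of class A, fell by 1.23 on the log2 scale (SE 0.32, edgeR adjusted p = 0.0472). With control plant 1 or any one drought-stressed plant left out, 1 factor was called higher and none lower by edgeR.

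Small heat shock proteins had 9 of 11 tested genes called higher and 2 lower by edgeR, and 9 higher and 1 lower with the replicate block. Without the genes chosen as higher, edgeR called 6 higher and 2 lower of 8, against 5.31% higher and 8.08% lower of all tested genes. Of the 12 genes of this family in the list, 9 were described because the study listed them as higher or lower. A 17.5 kDa class II gene (ClCG05G018130) had 3040, 9986 and 4800 counts in drought-stressed plants, against 14, 5 and 20 in control plants, a log2 fold change of 8.48 (SE 0.75, edgeR adjusted p = 0.00369). A transcript described as HSP18.1A (Novel00654) had 214, 561 and 503 counts in drought-stressed plants, against 1, 0 and 1 in control plants, a ratio of 519 with a 95% counting interval of 143 to 4291. Both were lowest in drought plant 1. The other 4 that rose were a second class IV gene (ClCG10G007510, 4.55), class I genes ClCG01G008680 (3.82) and ClCG03G001100 (2.43) and a class II gene (ClCG07G014370, 3.43), given as log2 fold changes. The family did not move as 1 block. The 18.2 kDa class I gene ClCG03G004820 had 6.92, 7.97 and 9.44 FPKM in drought-stressed plants against 52.4, 38.2 and 54.5 FPKM in control plants, and fell by 2.80 on the log2 scale (SE 0.33, edgeR adjusted p = 0.00573). An HSP20-like gene (ClCG08G008460) fell by 1.17 (SE 0.29, edgeR adjusted p = 0.0416). A gene described as HSP18.1B (Novel00021), with 2, 4 and 12 counts in drought-stressed plants and 0 in control plants, was too low to test. The number higher was 6 without control plant 1 and 7 without any one drought-stressed plant, and the number lower was 1 when any one plant other than control plant 2 was left out. Besides these, 3 heat shock proteins whose description states no class rose, with log2 fold changes of 3.76 for ClCG05G026230, 3.86 for ClCG10G002740 and 2.80 for ClCG04G005380. All 3 were described because the study listed them as higher.

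**Figure D3:**
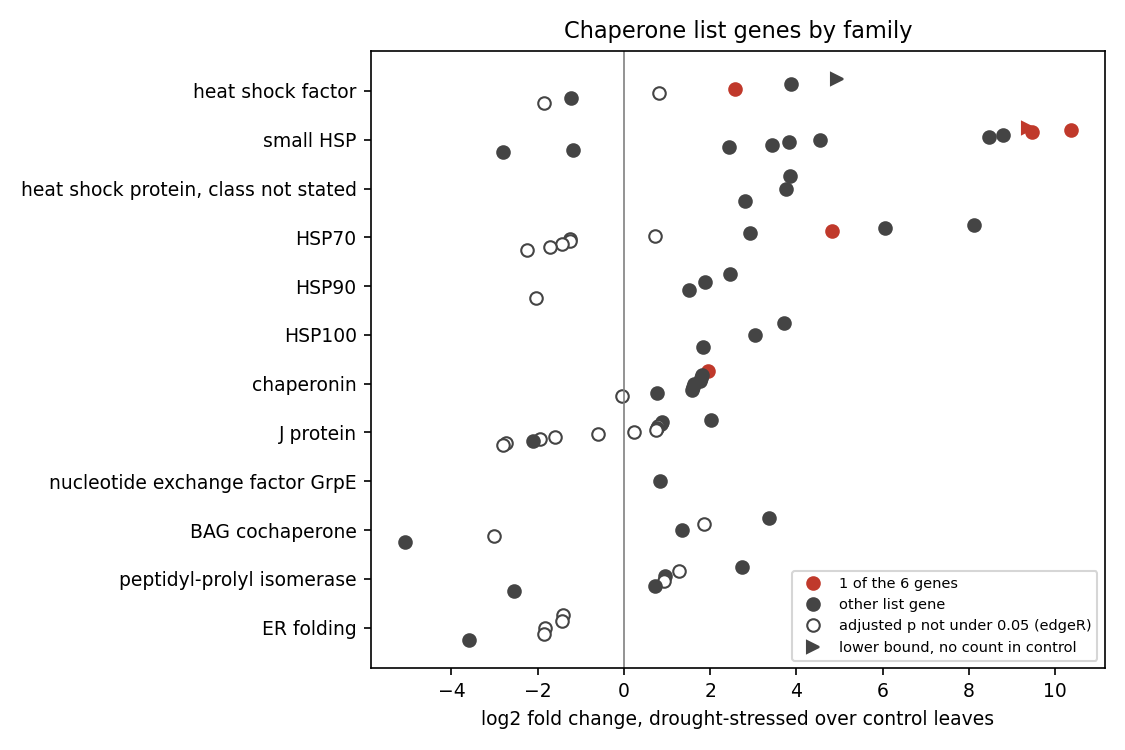
Log2 fold change, drought-stressed over control leaves, of the 76 tested list genes by family; red marks the 6 genes, open circles an adjusted p of 0.05 or more, and triangles lower bounds where control counts were 0. Small heat shock proteins reach the highest values, chaperonins lie between -0.05 and 1.95, and genes of ER folding are all below 0.

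HSP70 genes split. Of 10 tested genes caught by the words of this family, edgeR called 4 higher and 0 lower. Without heat shock 70 kDa protein 1 it called 3 of 9 higher. Of the 10, 9 were described because the study listed them as higher or lower. A further 1 of the 10 by kind is a 70 kDa protein of the U1 ribonucleoprotein, which is a splicing protein and no chaperone (ClCG05G007160, log2 fold change 0.73). Besides heat shock 70 kDa protein 1, the genes called higher were ClCG11G011300 (8.13, SE 0.71, edgeR adjusted p = 0.00369), the DnaK gene ClCG09G010110 (6.05) and ClCG09G019940 (2.92). ClCG11G011300 had 167, 492 and 218 FPKM in drought-stressed plants against 0.818, 0.544 and 1.23 FPKM in control plants, and so exceeded heat shock 70 kDa protein 1 in each drought-stressed plant. The other 5 were below every control plant in every drought-stressed plant in TMM-scaled CPM, with log2 fold changes of -2.24 to -1.25. All 5 had an unadjusted p under 0.05, DESeq2 called the 5 lower, and edgeR called 3 with the replicate block, 4 without control plant 2, 2 without control plant 3 and 1 without drought plant 1. One of them, ClCG04G008300, was among the more abundant in control leaves, with 198, 102 and 82.5 FPKM in drought-stressed plants against 268, 309 and 230 FPKM in control plants. Another of them, Novel00343, is a model of 312 bases described as partial, 693 bases from ClCG04G008300. It had 144, 89.5 and 54.0 FPKM in drought-stressed plants against 213, 231 and 163 FPKM in control plants. Whether both models belong to the same gene was not tested. In sum the 10 genes, with the U1 protein and the partial model included, had 886, 1018 and 619 FPKM in drought-stressed plants. The sums were 683, 1004 and 660 FPKM in control plants, which overlap.

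In the chaperonin family edgeR called 8 of 9 tested genes higher and 0 lower (0 also at an unadjusted p under 0.05 and by DESeq2). Without the 60 kDa chaperonin above it called 7 of 8 higher. All 8 genes called higher were described because the study listed them as higher. The 1 described in the deposited table, a T-complex subunit gamma (Novel00220), had a log2 fold change of -0.05 (SE 0.67, edgeR adjusted p = 0.972). Log2 fold changes of the 8 ran from 0.76 for a T-complex subunit alpha of the cytosolic chaperonin (ClCG10G012080) to 1.95 for the 60 kDa chaperonin above. A second abundant 60 kDa gene (ClCG03G014590) had 563, 544 and 537 FPKM in drought-stressed plants against 143, 116 and 158 FPKM in control plants, a log2 fold change of 1.76 (SE 0.35, edgeR adjusted p = 0.0229). Genes of co-chaperonins, which cap the barrel, rose as well, with log2 fold changes of 1.57 for the 20 kDa gene ClCG03G014820 and 1.59 for the 10 kDa gene ClCG06G000860. Their descriptions do not say which 60 kDa protein they work with. The summed level was 1602, 1800 and 1715 FPKM in drought-stressed plants and 429, 472 and 418 FPKM in control plants. These sums include the 60 kDa chaperonin above, at 653, 737 and 696 FPKM in drought-stressed plants and 154, 154 and 162 FPKM in control plants. The number called depended on the plants kept: it was 2 without control plant 1 or drought plant 1 and 1 without drought plant 2 or drought plant 3, and 5 without control plant 3 or with library totals.

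HSP100 genes, the disaggregases, rose in 3 of 3 cases, and all 3 were described because the study listed them as higher. They were led by ClCG04G011880 (log2 fold change 3.71) and ClCG05G014330 (3.03). Their summed level was 233, 369 and 285 FPKM in drought-stressed plants against 30.0, 31.9 and 36.0 FPKM in control plants. Every HSP90, BAG and isomerase gene below, and 11 of 14 J proteins, were likewise described because the study listed them as higher or lower. Of 4 HSP90 genes 3 rose, among them an HtpG gene (ClCG01G007290, 2.46), while ClCG08G014210 had a log2 fold change of -2.05 and did not pass (SE 0.62, edgeR adjusted p = 0.0701). The cochaperone BAG6 (ClCG06G003310), which binds HSP70, had 362, 1069 and 796 FPKM in drought-stressed plants against 73.6, 19.3 and 82.6 FPKM in control plants, and rose by 3.37 (SE 0.77, edgeR adjusted p = 0.0336). BAG1 (ClCG07G006720) fell by 5.09 on the log2 scale (SE 0.58, edgeR adjusted p = 0.00521). J proteins, which pass clients to HSP70, had 4 genes higher and 1 lower of 13 by edgeR, and 1 higher and 2 lower with the replicate block. Of 6 peptidyl-prolyl isomerases 3 rose and 1 fell. Without control plant 1 or any one drought-stressed plant no BAG gene was called higher, and 1 J protein and 1 isomerase were.

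Folding genes of the endoplasmic reticulum lay on the other side. All 5 at hand, calreticulins, calnexin and protein disulfide isomerases, were below every control plant in every drought-stressed plant in TMM-scaled CPM, a pattern of 18.5% of the tested genes. Each of these 5 was described because the study listed it as lower. EdgeR called 1 of them lower, the calreticulin ClCG02G015010 (log2 fold change -3.60, SE 0.86, adjusted p = 0.0377), 3 with the replicate block and 0 without any one drought-stressed plant, and DESeq2 called 5. The edgeR count was 3 without control plant 2 and 4 without control plant 3. They summed to 139, 212 and 181 FPKM in drought-stressed plants and to 405, 996 and 203 FPKM in control plants, with control plant 2 far above the rest. In FPKM, which has no correction for composition, drought plant 2 was thus above control plant 3 and the groups overlapped.

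**Figure D4:**
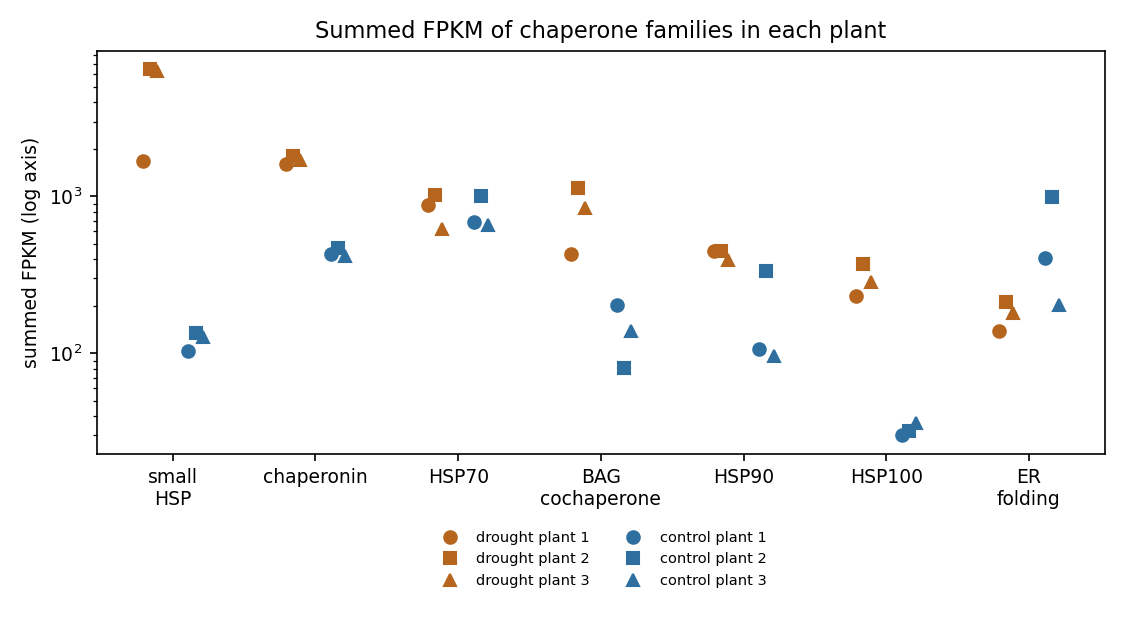
Summed FPKM of chaperone families in each plant, on a log axis; orange symbols are drought-stressed plants and blue symbols control plants. Small heat shock proteins had 1670, 6486 and 6333 in drought-stressed plants against 104, 136 and 126 in control plants, chaperonins are apart by less, and the groups overlap for HSP70 genes and for ER folding genes. The sums include the genes chosen as higher in drought-stressed leaves. In drought-stressed plants heat shock protein 21 (759, 3652 and 4566) and the class I-like gene (273, 1171 and 741) made up most of the small heat shock protein sum.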

How the data were processed

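Counts and FPKM per gene and library came from one table that the authors deposited. It names drought libraries TT1, which the labels call DT. The counts are the authors' fragments per gene on the Charleston Gray genome. The FPKM are the authors' counts scaled to library size and gene length; a second deposited FPKM table was not needed. Counts that the authors had divided by size factors, a signal of relative abundance, and their own fold changes and p-values were not used. The study's methods name TopHat, HTSeq and DESeq, while the submitters' processing notes name fastp, HISAT2 2.1.0, featureCounts and DESeq2, so the counter is uncertain.

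The counts were fitted with edgeR 4.0.16 in R 4.3.3 (TMM scaling, filterByExpr at 10 counts and 15 in total, quasi-likelihood test, two-sided, Benjamini-Hochberg adjustment over 16318 genes, threshold 0.05). The scripts were tested on simulated data with a dispersion of 0.05, below the common dispersion of 0.172 in these data. That test checks the code and does not show how reliable the calls are. CPM are TMM-scaled. Alternatives were DESeq2 1.42.0, RLE scaling, library totals, no filter, each plant left out in turn, a pseudocount of 5 and a replicate block. Same-numbered plants of the treatments deviated from their group means with correlations of 0.148, 0.430 and 0.130. No other matching of the plants was compared with these values, and the labels name no shared pot row or day. That the numbers pair the plants, as the replicate block takes them to, is therefore an assumption.

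The 6 genes and all lists were chosen with earlier results of these data known. Names of genes came from the deposited table for 364 genes and, as text only, from the study's lists of higher (1452) and lower (1927) genes. Besides the 6 genes, the text names genes from among the 3 with the lowest unadjusted p in each direction and family, the neighbours of the 6 on their chromosomes, the 5 genes nearest in profile and, chosen after their values were seen, the remaining small heat shock proteins, ClCG05G007160, ClCG09G019940, ClCG03G014590, ClCG03G014820 and ClCG10G012080. Counting intervals cover counting error only. No gene sequence was used here.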

Additional observations from a re-analysis of the deposited data

How the results depend on the processing

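The fold changes of the 5 genes with control counts and the bound of the class IV gene kept their direction in all 62 recalculations. This followed from the choice of the genes, since in each of them every drought-stressed plant lay above every control plant. In 5 recalculations the value moved by more than the SD of log2(CPM + 0.5) pooled over both groups. Other results depended on the plants and the test. Leaving out 1 plant at a time gave 4 to 6 of the 6 genes called, 21 to 48 list genes higher, 2 to 19 lower, and 314 to 4357 calls over all genes, against 6, 43, 7 and 2185 with every plant. DESeq2 called 4120 genes and 23 list genes lower, and library totals gave 4 list genes lower and moved the median log2 fold change of all genes up by 0.16. Under the replicate block, which pairs same-numbered plants, 12 list genes were lower, 36 higher and 2334 genes called in all. The causes were not tested. The order of the 6 genes by level was the same with TMM-scaled counts per kilobase, and 5 of 6 in place of 4 of 6 had the plant order 1, 3, 2 with library totals. With 3 plants a group, a gene expressed in control leaves below the floor of 3 counts cannot be told from one that is silent.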

Other observations

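Some genes with a chaperone name lie outside the families above and were chosen after their values were seen. Tubulin-specific chaperone D (ClCG06G000530), which folds tubulin dimers, had 470, 505 and 411 counts in drought-stressed plants against 153, 170 and 163 in control plants, and was higher (log2 fold change 1.21, SE 0.20, edgeR adjusted p = 0.0147). Tubulin-specific chaperone E (ClCG03G011750) had a log2 fold change of 0.97 and did not pass (SE 0.27, edgeR adjusted p = 0.0563). A copper chaperone (ClCG09G015140) had 123, 69 and 135 counts in drought-stressed plants against 555, 246 and 163 in control plants, with a log2 fold change of -1.84 (SE 0.53, edgeR adjusted p = 0.0619).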
